A study of Bos taurus with 2 samples.

Results

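Fibroblasts of the lactating bovine mammary gland were read here from 229 barcodes of an adult library that held 15897 barcodes, a share of 1.44% (exact binomial 95% interval 1.26 to 1.64%). A barcode was taken as a fibroblast when it had at least 300 detected genes, UMIs of at least 3 of the 4 matrix genes COL1A1, COL3A1, DCN and LUM that summed to 6 or more, at most 1 UMI of the epithelial genes EPCAM and KRT8 together, and at most 1 UMI of the T cell genes CD3E, CD3D and CD3G together. UMIs, the molecular tags that count RNA molecules, were used as deposited. The whole series held 29669 barcodes. The same rule took 11820 of the 13772 newborn barcodes (85.8%, 85.2 to 86.4%), and these newborn fibroblasts served for comparison. The study profiled single cells of the mammary gland of Holstein dairy cattle, with 1 library from an adult in lactation and 1 library from a newborn, and the labels name no treatment or genetic change. Both samples were trimmed of fat, digested with hyaluronidase and collagenases and strained before 3' droplet sequencing, so cells that resist digestion, large cells and fat cells can be lost. The labels give no number of animals, age in days or stage of lactation. With 1 library per stage, stage, animal and library cannot be told apart, no test between stages was possible, and every interval given is an exact 95% interval for counting error only.

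Fibroblasts make and remodel the collagen, proteoglycan and elastic matrix in which mammary ducts and alveoli are embedded. In many organs they fall into broad types, among them adventitial fibroblasts, which line vessels and fascia and carry PI16, CD34 and DPT, and fibroblasts closer to epithelium or capillaries that make basement membrane collagens. They also release growth factors, chemokines and complement proteins that act on neighbouring epithelial, vascular and immune cells.

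Before the limits on epithelial and T cell genes, 275 adult barcodes met the matrix part of the rule, of which the epithelial limit alone left out 8, the T cell limit alone 34 and both limits 4. Of the 229 members, 182 had UMIs of all 4 rule genes and 47 of 3, and their rule genes summed to a median of 50 UMIs (6 to 310). The 8 members just inside the threshold, with 6 to 8 rule UMIs, had a median of 995.5 UMIs in all, 9 UMIs of PI16, 3 of PDGFRA and none of PRG4. The 9 barcodes just outside it, with 3 to 5 rule UMIs, had a median of 890 UMIs, 11 UMIs of PI16, 1 of PDGFRA and none of PRG4. Barcodes on either side of the edge were shallow, and the level of PRG4 could not be read in them.

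The label was checked against marker genes, most of which the rule did not use. All 18 listed fibroblast markers had UMIs, among them COL1A2 at 3172 CPM (UMIs scaled to 1000000 summed UMIs of the same cells), FBLN1 at 1503 CPM, MMP2 at 2320.2 CPM and PDGFRA at 461 CPM, although TCF21 had only 2 UMIs. Of 14 pericyte and smooth muscle markers, 8 had UMIs and RGS5, CSPG4, MCAM, ACTG2, HIGD1B and NDUFA4L2 had none. The summed level of that list was 36.3 CPM in adult and 26.7 CPM in newborn fibroblasts, and ACTA2, the actin of contractile cells, had 10 UMIs in 6 of the 229 cells. Adipocyte markers summed to 5.34 CPM, with ADIPOQ, FABP4, LEP and PLIN4 at 0.

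Signal of other lineages was nevertheless present. The 12 endothelial markers summed to 786 CPM in adult fibroblasts, against 8059 CPM in adult endothelial barcodes and 45.0 CPM in newborn fibroblasts, and 11 members also met the rule for endothelial barcodes, 7 that for macrophages or monocytes, 1 that for neutrophils and 2 that for mast cells, 20 members in all. Epithelial markers summed to 301 CPM, close to the 342 CPM of adult T cells, with CLDN7 and KRT14 at 0. Lower sums were seen for macrophage (125 CPM), perineurial (67.3 CPM), T cell (52.4 CPM, CD3G at 0), mast cell (38.5 CPM) and B cell markers (32.1 CPM). The epithelial and T cell lists hold EPCAM, KRT8, CD3E, CD3D and CD3G, which the rule limits in members. Their sums, and the 0 of CD3G, were therefore partly set by the choice of cells. Milk protein messages reached all 229 cells: CSN2, the beta-casein gene, had 7716 CPM, against 108980 CPM in adult epithelial barcodes, and 1 cell held 2617 of its 7220 UMIs. In 47 members the doublet score lay within the highest 11.9% of the library. The endothelial signal, the 20 overlaps and the high doublet scores lay mostly in 39 members that clustered together, called the deep cluster here, which had a median of 9898 UMIs, held 40.4% of all UMIs of the members and included 14 of the 20 cells and 25 of the 47. Its endothelial markers summed to 1747 CPM, while its epithelial markers (111 CPM) and its median share of milk protein UMIs (0.980%) were the lowest of the 5 clusters described further down. The part of other cells and of free RNA in the levels below was not tested. Where leaving out the deep cluster moved a named ratio by more than 1.5 times, the level without it is given beside it for genes of 20 or more adult UMIs. The deep cluster was picked as the cluster led by GRO1, PTX3 and IL6, so low levels of these genes outside it were set by that choice. Only adult cells were left out, and the newborn fibroblasts were kept whole.

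Depth differed between the sets. Adult members summed to 935698 UMIs, and the median cell had 2744 UMIs (525 to 25297) from 1319 genes. Newborn members summed to 61609884 UMIs, and the median cell had 4904.5 UMIs from 1424 genes. Mitochondrially encoded genes took 5.02% of the UMIs of the median adult fibroblast and 1.19% of those of the median newborn fibroblast. The libraries shared 57 barcode sequences, 1 of which was a member in both.

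Adult fibroblasts were set against newborn fibroblasts and, within the adult library, against the highest of 6 other classes, which were endothelial, epithelial, T cell, macrophage or monocyte, neutrophil and mast cell barcodes, each chosen by its own marker genes. Within the adult library 234 of 2858 genes (8.19%) stood 4-fold or more above the highest other class, with at least 50 CPM and 20 UMIs. Between the stages, 1982 of 6023 (32.9%) were 2-fold or more higher and 491 (8.15%) 2-fold or more lower in adult fibroblasts, where a gene counted as measured with at least 20 UMIs in the 2 sets together and 20 CPM in the higher set. These shares are the background against which counts of list members are to be read. The median log2 ratio of adult over newborn fibroblasts was 0.62 over these genes, so a gene that follows the bulk of genes is 1.54-fold higher in adult fibroblasts on the CPM scale. Scaling by the median of ratios, called median scaling below, removes most of this shift and turns the counts over all genes to 848 higher and 1069 lower. Where it moved a count of list members by more than 1.5 times, the count with median scaling is given beside it. Medians of most gene lists are therefore given together with their distance from 0.62. Without the deep cluster, 2546 of 6244 genes were 2-fold or more higher and 649 lower, which is the background for list counts given without it.

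The fibrillar collagen genes were high in adult fibroblasts and low in the other adult classes, apart from COL5A3. COL1A1 and COL1A2, the chains of type I collagen, had 2567 and 3172 CPM in adult fibroblasts, and COL3A1, the chain of type III collagen, had 2888 CPM, while T cells, the highest of the other adult classes, had 20.1, 23.1 and 23.7 CPM of these 3 genes. In newborn fibroblasts the levels were 6829, 5984 and 3586 CPM. COL1A1 and COL3A1 helped to choose the cells, so their level is a description. COL5A1, a chain of the type V collagen that starts fibrils, had 484 CPM in adult and 406 CPM in newborn fibroblasts. COL5A3 stood apart, since adult endothelial cells carried more of it (125 CPM) than adult fibroblasts did (97.3 CPM). Of 6 measured fibrillar collagen genes, 1 was 2-fold or more higher in adult fibroblasts and 1, COL1A1, was 2-fold or more lower, against 1 higher and 2 lower with median scaling. Without the rule genes COL1A1 and COL3A1, 1 of 4 was higher and none lower on the CPM scale. The list's median below includes the rule genes. COL1A1 was no longer 2-fold lower outside the deep cluster, where it had 3449 CPM. The list's median log2 ratio was -0.03, -0.65 relative to all genes, and its sign turned in 5 settings.

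Other interstitial collagens were present in adult fibroblasts at higher levels than in any other adult class for 7 of 7 genes with enough UMIs, each by 4-fold or more. COL6A2 and COL6A1, chains of the beaded-filament type VI collagen, had 333 and 152 CPM in adult fibroblasts and 288 and 91.5 CPM in newborn fibroblasts. COL14A1, a fibril-associated collagen, had 193 CPM in adult and 187 CPM in newborn fibroblasts. COL8A1 (ENSBTAG00000013662), a short-chain network collagen known from vessel walls and the eye, had 244 UMIs in 59 cells, that is 261 CPM in adult fibroblasts, against 1.53 CPM in newborn fibroblasts, 171-fold (134 to 219) higher in adult. Its partner COL8A2 had 32 UMIs in 26 cells, 34.2 CPM in adult and 0.828 CPM in newborn fibroblasts, at about the level of adult endothelial cells (35.1 CPM). COL8A1 and COL8A2 thus lay far above the stage shift while the type VI and XIV chains lay near or below it.

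Small leucine-rich proteoglycans, which coat collagen fibrils and set their width, were higher in adult fibroblasts as a group: 8 of 10 genes were 2-fold or more higher and none lower, with a median log2 ratio of 1.48, which is 0.85 above that of all genes. With median scaling the counts were 2 higher and none lower. Without the rule genes DCN and LUM, 7 of 8 genes were higher and none lower before that scaling. The 8 of them that were no rule genes all stood 4-fold or more above every other adult class. DCN (decorin) and LUM (lumican), rule genes both, had 11182 and 1659 CPM in adult fibroblasts and 9626 and 738 CPM in newborn fibroblasts. ASPN (asporin) had 587 CPM in adult and 85.6 CPM in newborn fibroblasts, 6.85-fold (6.26 to 7.48) higher in adult. PODN (podocan) had 459.6 CPM in adult and 162 CPM in newborn fibroblasts. KERA, which encodes keratocan and is best known from the cornea, had 120 UMIs in 51 cells, or 128 CPM in adult and 38.5 CPM in newborn fibroblasts, and it was 499.6-fold (208 to 1567) above the highest other adult class, the widest such gap of any gene ranked.

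Elastic fibre genes split around elastin itself. ELN, the gene of tropoelastin, had 504 CPM in adult and 4018 CPM in newborn fibroblasts, 7.96-fold (7.28 to 8.74) higher in newborn, and its adult fibroblast level was near that of adult endothelial cells (423 CPM). The microfibril and fibulin genes that surround elastin ran the other way. FBN1 (fibrillin-1) had 1928 CPM in adult and 606 CPM in newborn fibroblasts, FBLN2 (fibulin-2) 1707 CPM in adult and 438 CPM in newborn fibroblasts, and EFEMP1 (fibulin-3) 1092 CPM in adult and 155 CPM in newborn fibroblasts. For EFEMP1 the ratio was 7.03-fold (6.58 to 7.50). MFAP4, which binds elastic fibres, was somewhat lower in adult fibroblasts, at 511 CPM, against 674 CPM in newborn fibroblasts. Of 16 genes in the list, 9 were 2-fold or more higher in adult fibroblasts and ELN was the 1 gene that was lower, against 4 higher and 2 lower with median scaling. The list's median log2 ratio was 1.14, 0.52 above all genes, and it was at or above that of all genes in all settings except 1.

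Basement membrane genes were higher in adult fibroblasts for 8 of 12 genes and 2-fold lower for none (median log2 ratio 1.24, 0.62 above all genes), against 3 higher and 1 lower with median scaling. COL18A1 and COL15A1, whose products link basement membranes to the stroma, had 399.7 and 383 CPM in adult fibroblasts and 22.4 and 42.3 CPM in newborn fibroblasts, which is 17.8-fold (15.9 to 20.0) and 9.03-fold (8.07 to 10.1). Adult endothelial cells, whose markers were present in the members, had 138 CPM of COL18A1 and 26.4 CPM of COL15A1. LAMA2, the laminin chain of mesenchymal basement membranes, had 184 CPM in adult fibroblasts, 59.6 CPM in newborn fibroblasts and at most 1.64 CPM in another adult class. SPARC, a collagen-binding glycoprotein, was the exception at 1590.3 CPM in adult and 2712 CPM in newborn fibroblasts.

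Genes that process collagen moved little as a group, with 6 of 20 higher and none lower by 2-fold and a median log2 ratio 0.08 above that of all genes (2 higher and 3 lower with median scaling). PCOLCE2, which enhances procollagen cleavage, had 1513 CPM in adult and 920.0 CPM in newborn fibroblasts and was 66.7-fold (45.6 to 102) above the highest other adult class. LOXL1, the crosslinking enzyme tied to elastin upkeep, had 197 CPM in adult and 33.3 CPM in newborn fibroblasts, 5.90-fold (5.04 to 6.86) higher in adult. LOX, the related crosslinking enzyme, had 76.9 CPM in adult and 109.8 CPM in newborn fibroblasts. P4HA3, a subunit of prolyl 4-hydroxylase, rested on 29 UMIs in 18 cells, 31 CPM in adult and 3.83 CPM in newborn fibroblasts.

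Among glycoproteins that regulate cell-matrix contact, TNXB (tenascin-X, which spaces collagen fibrils) had 1247 CPM in adult and 385 CPM in newborn fibroblasts, FN1 (fibronectin) 673 CPM in adult and 250.0 CPM in newborn fibroblasts, and SMOC2 255 CPM in adult and 56.9 CPM in newborn fibroblasts. THBS1, a large adhesive protein released on injury, had 116 CPM in adult and 545 CPM in newborn fibroblasts. POSTN (periostin) was almost absent from adult fibroblasts, with 3 UMIs or 3.21 CPM, against 70.3 CPM in newborn fibroblasts, 21.9-fold (7.50 to 106) higher in newborn. Of 15 genes of this list, 8 were higher and 3 lower in adult fibroblasts by 2-fold (5 higher and 3 lower with median scaling).

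PRG4 (ENSBTAG00000011932), the gene of lubricin, the mucin-like glycoprotein that lubricates joint and tendon surfaces, had 680 UMIs in 64 of 229 adult cells, or 727 CPM in adult fibroblasts, against 7.95 CPM in newborn fibroblasts. It was 91.4-fold (81.2 to 103) higher in adult fibroblasts than in newborn fibroblasts and 48-fold (30.1 to 81.5) higher than in adult macrophages or monocytes, the next class. Its UMIs were concentrated, with up to 73 in a cell and 21 cells with 10 or more. The richest cells, with 73, 65 and 48 UMIs, all lay in the deep cluster, which held more PRG4 UMIs than all other members together. TNFAIP6, which modifies hyaluronan and is induced by inflammation, went the other way with 489 CPM in adult and 6425 CPM in newborn fibroblasts, and outside the deep cluster its adult level was 154 CPM. VCAN (versican) had 361 CPM in adult and 176 CPM in newborn fibroblasts, and HAS2, a hyaluronan synthase, 53.4 CPM in adult and 31.9 CPM in newborn fibroblasts. As a group the 10 lubrication and hyaluronan genes did not lean either way, with 4 higher and 1 lower in adult fibroblasts by 2-fold (2 higher and 4 lower with median scaling).

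Protease and inhibitor genes were also mixed, with 4 of 16 higher and 2 lower (1 higher and 2 lower with median scaling). MMP2, a gelatinase, had 2320.2 CPM in adult and 1267 CPM in newborn fibroblasts. SERPINF1, the anti-angiogenic PEDF, had 1857 CPM in adult and 688 CPM in newborn fibroblasts and was 123-fold (77.4 to 208) above the highest other adult class. ADAMTS4, an aggrecan-cleaving protease, had 78 CPM from 15 adult cells, against 991 CPM in newborn fibroblasts, and 12.5 CPM outside the deep cluster. KLK7, a kallikrein peptidase known from skin, had 74 UMIs in 26 cells, 79.1 CPM in adult and 0.195 CPM in newborn fibroblasts (406-fold, 219 to 821).

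The comparison within the adult library shares library, animal and free RNA between its sides and does not involve the stage. Among its 234 genes, the widest gaps after KERA were those of PAMR1 at 458-fold, LOX at 249.8-fold, VEGFD at 224-fold, ITGBL1 at 221-fold, LRRC17 at 219-fold and ECRG4 at 199-fold. Then came MFAP4 at 181-fold, SLIT3, a guidance ligand, at 173-fold, PDGFRL at 169.9-fold, OLFML2B at 169-fold, HTRA3, a secreted serine protease, at 158-fold, C1QTNF7 at 156-fold, ZFHX4, a transcription factor, at 143-fold and KLK7 at 140.0-fold. Most of these rest on few UMIs in the other class, and the interval for SLIT3 ran from 106 to 301. The same 15 genes differed in how they compared with newborn fibroblasts. PAMR1 (70.5 and 13.8 CPM in adult and newborn fibroblasts), LRRC17 (67.3 and 12 CPM) and SLIT3 (160.3 and 31.9 CPM) were higher in adult, ITGBL1 (56.6 and 57.3 CPM) and OLFML2B (69.5 and 67.3 CPM) were at nearly equal levels, and C1QTNF7 (80.2 and 174 CPM) was lower in adult.

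**Figure D1:**
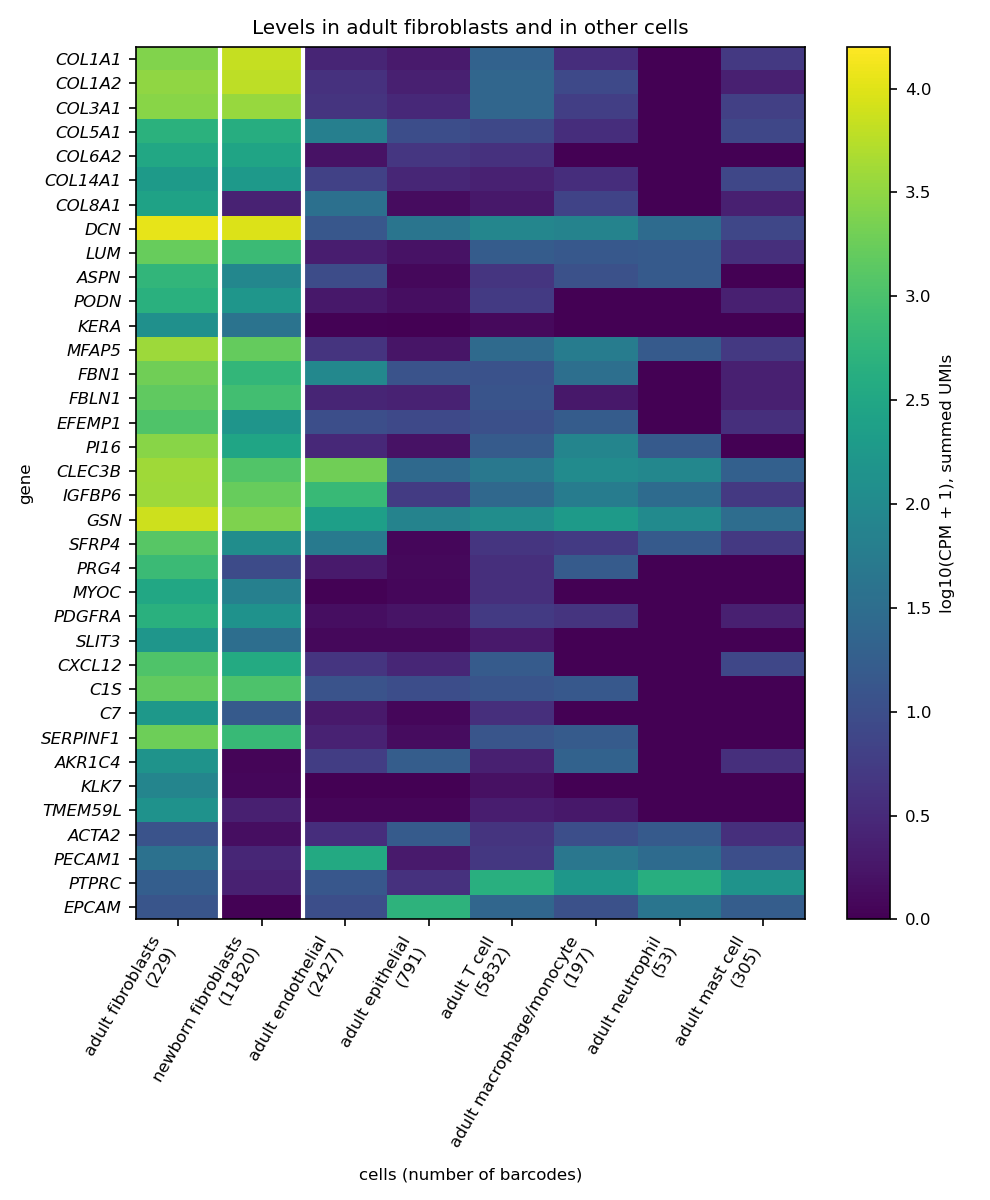
Levels of 36 genes (rows) in adult fibroblasts, newborn fibroblasts and 6 other adult classes (columns, with the number of barcodes in brackets), coloured by log10(CPM + 1) of summed UMIs. Matrix and adventitial genes are bright in both fibroblast columns, while PRG4, COL8A1, AKR1C4, KLK7 and TMEM59L are brightest in the adult one, where PRG4 had 727 CPM, against 7.95 CPM in newborn fibroblasts.

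Genes of adventitial fibroblasts marked the adult cells broadly. Of 13 measured genes of that list, 9 were 2-fold or more higher in adult fibroblasts and none lower (median log2 ratio 1.26, 0.63 above all genes, and above them in all settings except 1), against 5 higher and none lower with median scaling. In 11 of 12 the level was 4-fold or more above every other adult class. PI16 (ENSBTAG00000002092), a peptidase inhibitor that marks adventitial fibroblasts across organs, had 2683 UMIs in 194 cells, 2867 CPM in adult and 296 CPM in newborn fibroblasts, 9.67-fold (9.28 to 10.1) higher in adult. SFRP4, a secreted WNT antagonist, had 1291 CPM in adult and 112 CPM in newborn fibroblasts (11.5-fold, 10.8 to 12.3). GSN (gelsolin, an actin-severing protein with a secreted form) had 7678 CPM in adult and 2443 CPM in newborn fibroblasts, and IGFBP6 3812 CPM in adult and 1682 CPM in newborn fibroblasts. CLEC3B (tetranectin) had 4011 CPM in adult and 1165 CPM in newborn fibroblasts, but adult endothelial cells had 1945 CPM of it, so it separated fibroblasts from other adult cells less than PI16 did. CD34 had 214 CPM in adult and 99.4 CPM in newborn fibroblasts. MYOC, which encodes the extracellular glycoprotein myocilin and lies outside that list, had 311 UMIs in 120 cells and 332 CPM in adult and 67.1 CPM in newborn fibroblasts.

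Contractile genes were few and mostly shared with other adult cells. CALD1, FLNA, TPM1 and MYL9, cytoskeletal genes that many cells carry, were all 2-fold or more higher in adult fibroblasts, with 368, 199, 164 and 86.6 CPM in adult fibroblasts and 123, 24, 50.7 and 23 CPM in newborn fibroblasts. Each of these 4 was lower in adult fibroblasts than in adult endothelial or epithelial cells. DES (desmin) was the only measured contractile gene with a higher level in fibroblasts than in the other adult classes, on 35 UMIs in 22 cells. COX4I2, a gene often used to mark pericytes, had 32 UMIs in 18 cells and 34.2 CPM in adult fibroblasts, against 2 UMIs and 0.0325 CPM in newborn fibroblasts, and 55.6 CPM outside the deep cluster. PDGFRB, a receptor of pericytes and fibroblasts, had 22 UMIs.

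Growth factor ligands were divided, with 7 of 20 genes 2-fold or more higher and 7 lower in adult fibroblasts and a median log2 ratio of -0.20, which is -0.83 relative to all genes. The lymphangiogenic factors VEGFD and VEGFC had 104 and 114 CPM in adult fibroblasts and 15.3 and 25.5 CPM in newborn fibroblasts, 6.77-fold (5.43 to 8.35) and 4.49-fold (3.65 to 5.46) higher in adult. Neither had more than 6.50 CPM in another adult class. ANGPTL1, a secreted angiopoietin-like protein, had 422 CPM in adult and 70.4 CPM in newborn fibroblasts, and GDF10, a TGF-beta family ligand, 100.5 CPM in adult and 7.87 CPM in newborn fibroblasts (12.8-fold, 10.1 to 15.9), and 152 CPM outside the deep cluster. On the other side IGF2, the fetal growth factor, had 676 CPM in adult and 3617 CPM in newborn fibroblasts, 5.35-fold (4.94 to 5.79) higher in newborn, with 1024 CPM outside the deep cluster. VEGFA had 49.2 CPM in adult and 185 CPM in newborn fibroblasts, with 16.1 CPM outside the deep cluster. FGF7 and FGF10, fibroblast ligands for epithelial FGF receptors, had like levels for FGF10 (39.5 and 30.1 CPM in adult and newborn fibroblasts), while FGF7 was lower in adult (105 and 158 CPM).

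Of 12 receptors, 8 were 2-fold or more higher and none lower in adult fibroblasts (median log2 ratio 1.24, 0.61 above all genes), against 2 higher and none lower with median scaling. PDGFRA, the receptor that defines many fibroblasts, had 431 UMIs in 162 cells, or 461 CPM in adult and 138 CPM in newborn fibroblasts, 3.35-fold (3.03 to 3.69) higher in adult. TGFBR3 (betaglycan) had 512 CPM in adult and 216 CPM in newborn fibroblasts, and TGFBR2, the type II TGF-beta receptor, 226 CPM in adult and 75.2 CPM in newborn fibroblasts. Insulin-like growth factor binding proteins went separate ways. IGFBP4 had 351 CPM in adult and 28 CPM in newborn fibroblasts (12.5-fold, 11.1 to 14.1), although adult endothelial cells had 378 CPM of it. IGFBP3, the main serum carrier, had 579 CPM in adult and 2799 CPM in newborn fibroblasts, 4.83-fold (4.44 to 5.27) higher in newborn. IGFBP1 had 2 UMIs in adult fibroblasts, 2.14 CPM, against 215 CPM in newborn fibroblasts, 100.4-fold (27.8 to 829) higher in newborn.

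WNT and BMP regulators included 8 of 15 genes higher and 3 lower in adult fibroblasts (4 higher and 3 lower with median scaling). Beside SFRP4, the WNT antagonist DKK3 had 88.7 CPM in adult and 16.1 CPM in newborn fibroblasts and the ligand WNT2 had 23.5 CPM in adult and 2.58 CPM in newborn fibroblasts on 22 UMIs. FST (follistatin, which binds activins) had 32.1 CPM in adult and 357 CPM in newborn fibroblasts, 11.1-fold (7.80 to 16.5) higher in newborn, with 50.2 CPM outside the deep cluster. Hormone receptors of the mammary stroma were read at low depth. NR3C1, the glucocorticoid receptor, had 233 CPM in adult and 113 CPM in newborn fibroblasts and GHR, the growth hormone receptor, 58.8 CPM in adult and 46.6 CPM in newborn fibroblasts.

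Of 10 measured genes of retinoid and steroid handling, 4 were 2-fold or more higher and 2 lower in adult fibroblasts, with a median log2 ratio of 0.29, which is -0.33 relative to all genes. AKR1C4, an aldo-keto reductase that reduces steroids, had 136 UMIs in 65 cells, 145 CPM in adult and 0.146 CPM in newborn fibroblasts, 995-fold (509 to 2223) higher in adult. Among the 193 members with low levels of other lineages, set against newborn fibroblasts under the same limits, the ratio was 2063-fold. The limits were fewer than 3 UMIs of each marker list for endothelial, T, macrophage or monocyte, mast, and B or plasma cells. Milk protein UMIs were held to at most 20%. The ratio can thus move through either set, and before the limits newborn fibroblasts had only 9 UMIs of AKR1C4. Reads of this family of near-identical genes may have been split between its copies. ALDH1A1, which makes retinoic acid, had 274 CPM in adult and 28.8 CPM in newborn fibroblasts (9.50-fold, 8.30 to 10.8). RBP4, the retinol carrier, was at nearly equal levels (492 and 507 CPM). CYP26B1, which breaks retinoic acid down, had 0 UMIs in adult fibroblasts and 117 CPM in newborn fibroblasts. Against a floor of 3 UMIs it was 36.4-fold higher in newborn, with a counting interval from 29.6 upward.

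Natriuretic peptide genes were measured as a short list of 7. NPPB, the gene of B-type natriuretic peptide, had 75.9 CPM in adult and 0.649 CPM in newborn fibroblasts (117-fold, 78.2 to 177), but its 71 UMIs lay in 6 cells and 37 of them in 1 cell, and outside the deep cluster its level was 5.38 CPM. PDE5A, which breaks down cyclic GMP, was spread over 56 cells with 84.4 CPM in adult and 25.4 CPM in newborn fibroblasts.

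Complement genes were a broad feature of the adult fibroblasts. C1S and C1R, the proteases that start the classical pathway, had 1533 and 1385 CPM in adult fibroblasts, 1069 and 1241 CPM in newborn fibroblasts, and no more than 14.3 CPM in another adult class. Of 17 complement genes, 10 were 2-fold or more higher and 2 lower in adult fibroblasts (median log2 ratio 1.21, 0.59 above all genes, and above them in all settings except 1). C7, a part of the membrane attack complex, had 174 CPM in adult and 14.8 CPM in newborn fibroblasts (11.8-fold, 9.93 to 14). C2 had 296 CPM in adult and 29.3 CPM in newborn fibroblasts. CFD and C3 had 439 and 362 CPM in adult fibroblasts and 20.5 and 40.7 CPM in newborn fibroblasts, but adult macrophages or monocytes had 2150.1 CPM of CFD and adult epithelial cells 440.1 CPM of C3. CFB, factor B of the alternative pathway, was 3.31-fold (2.90 to 3.80) higher in newborn fibroblasts (234 and 775 CPM in adult and newborn fibroblasts).

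Chemokines divided by how they were spread over cells. CXCL12, the stromal ligand of CXCR4, had UMIs in 149 cells and 1118 CPM in adult and 371 CPM in newborn fibroblasts, with at most 14.9 CPM in another adult class. CXCL14 had 636 CPM in adult and 191 CPM in newborn fibroblasts from 57 cells. CCL2, a chemokine for monocytes, had 3216 UMIs in 53 cells, 3437 CPM in adult and 9465 CPM in newborn fibroblasts, and outside the deep cluster 231 CPM. IL6 had 397 UMIs in 34 cells, of which 1 cell held 221, and 23.3 CPM outside the deep cluster, against 424 CPM with it and 828 CPM in newborn fibroblasts. Since IL6 was among the genes that picked that cluster out, its low level outside it was set by the choice. CXCL3 was above the newborn level of 2739 CPM over all adult members (3533 CPM) and below it without the deep cluster (403 CPM). The genes listed as CXCL2, CXCL3 and GRO1 are close copies of each other, so their counts may be shared among them. In all, 13 of 27 chemokine and cytokine genes were higher and 3 lower in adult fibroblasts, and 11 and 8 of 24 without the deep cluster, against 10 higher and 7 lower with median scaling. Over all genes, 2546 of 6244 were higher and 649 lower without the deep cluster.

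Genes of MHC class I presentation were higher in adult fibroblasts for 7 of 12 and lower for none (median log2 ratio 1.56, 0.93 above all genes). BOLA and JSP, bovine class I heavy chains, had 1831 and 481 CPM in adult fibroblasts and 238 and 11.8 CPM in newborn fibroblasts. These are members of 1 variable gene family, so the split of reads between them, and the allele of each animal, bear on the ratios. B2M, their light chain, had 2997 CPM in adult and 1684 CPM in newborn fibroblasts. All 3 were higher still in adult T cells or neutrophils. Class II genes were at 74.8 CPM for CD74 and 47 CPM for BOLA-DRA, against 10446 and 9215 CPM in adult macrophages or monocytes.

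Of 26 mesenchymal transcription factors, 6 were 2-fold or more higher and 6 lower in adult fibroblasts (2 higher and 8 lower with median scaling). PRRX1, a regulator of limb and stromal mesenchyme, had 95.1 CPM in adult and 60.3 CPM in newborn fibroblasts, OSR1 94 CPM in adult and 39.8 CPM in newborn fibroblasts and TCF4 233 CPM in adult and 70.5 CPM in newborn fibroblasts, while TWIST1 was lower in adult fibroblasts (151 and 373 CPM in adult and newborn fibroblasts). CEBPD, an early factor of fat cell formation, had 1489.8 CPM in adult and 6465 CPM in newborn fibroblasts, 4.34-fold (4.12 to 4.58) higher in newborn. Of 8 positional factors, none was 2-fold higher and 4 were lower in adult fibroblasts. These counts moved with the setting. With the limit of 20 UMIs in the 2 sets together but not that of 20 CPM, 11 of 34 were higher and 9 lower. Without the highest doublet scores, 2 of 8 were higher and 3 lower. TBX3, a regulator of mammary placode formation, had 72.7 CPM in adult and 169 CPM in newborn fibroblasts, and EMX2 18.2 CPM in adult and 89.1 CPM in newborn fibroblasts. CDKN1C, an imprinted inhibitor of the cell cycle, had 982 CPM in adult and 313 CPM in newborn fibroblasts (3.14-fold, 2.94 to 3.36).

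The adult fibroblasts were not uniform. Clustering of the 229 cells gave 5 clusters, which are described here by the genes that lead them, and since the clusters were made from these genes the differences between them are a description without a test. Cluster 1 held 82 cells at a median of 2404 UMIs and was led by CFD (898 CPM), C3 (733 CPM), SELENBP1 and APBB1IP. Milk protein genes were also among its leading genes, but the cell that held 2617 UMIs of CSN2 lies in this cluster, whose CSN2 level was 15518 CPM with that cell and 6206 CPM without it, against 7805, 6749.6, 2488 and 6594 CPM in clusters 2 to 5. Cluster 2 held 56 cells at 1852 UMIs, cluster 3 held 39 cells at 2389 UMIs, cluster 4 held 39 cells at 9898 UMIs and cluster 5 held 13 cells at 3627 UMIs. Cluster 4 is the deep cluster defined above.

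Cluster 2 was led by COX4I2, GDF10, the tight junction gene CLDN1, the homeobox gene SIX3, DLK1, FGL1 and the imprinted genes IGF2 and PEG3. DLK1 (ENSBTAG00000037899), a NOTCH-like protein that restrains fat cell formation, reached 8029 CPM there, against 612, 0, 437 and 1607 CPM in clusters 1, 3, 4 and 5. IGF2 reached 3343 CPM and GDF10 624 CPM. Basement membrane collagens went with them, with COL15A1 at 1423 CPM and COL4A1 at 2175 CPM in cluster 2, against 425 and 796 CPM in cluster 1. COL3A1 was also high, at 8557 CPM, and CXCL12 stood at 3503 CPM, while CD34 had no UMI in these 56 cells and PRG4 had 8.00 CPM. No cell of cluster 2 met the rule of another class, and 3 had a high doublet score, but there was no such rule for perineurial cells or pericytes. Perineurial markers, CLDN1 among them, summed to 248 CPM in cluster 2, pericyte and smooth muscle markers to 120.0 CPM and epithelial markers to 519.8 CPM, each the highest of the 5 clusters. The part of such cells in cluster 2 was not tested.

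Cluster 3 was led by C1QTNF3, P4HA3, CXCL14 (2335 CPM), the collagen-binding proteoglycan FMOD (522 CPM), COL8A1 (854 CPM) and COL14A1 (608 CPM). PRG4 reached 1851 CPM and PI16 7234 CPM, against 1208 CPM of PI16 in cluster 2. ELN had 1490.4 CPM there and 517 CPM in cluster 1. DLK1 had no UMI in its 39 cells. The deep cluster held more UMIs of PRG4 and of COL8A1 than cluster 3, at lower levels in CPM.

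Cluster 4 was led by GRO1 (8853 CPM), PTX3 (1127 CPM), IL6 (1016 CPM), CCL2 (8169.9 CPM), PTGS2, the inducible cyclooxygenase (1442 CPM), and other genes of acute inflammation. The same cells held the signs of other lineages most often: 14 of 39 met the rule of another class, 25 of 39 had a high doublet score, endothelial markers summed to 1747 CPM, and the lymphatic genes MMRN1 and LYVE1 had 614 and 458 CPM. JUN, an immediate early gene that tissue dissociation can raise, had 8416 CPM, against 1745 CPM in cluster 1. Cluster 5 was led by PTI, the lymphoid genes GZMB, IL7R and RGS1, and its T cell and mast cell markers summed to 347 and 329 CPM, with 7 of 13 cells at a high doublet score. The part of captured or joined cells in clusters 4 and 5 was not tested.

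**Figure D2:**
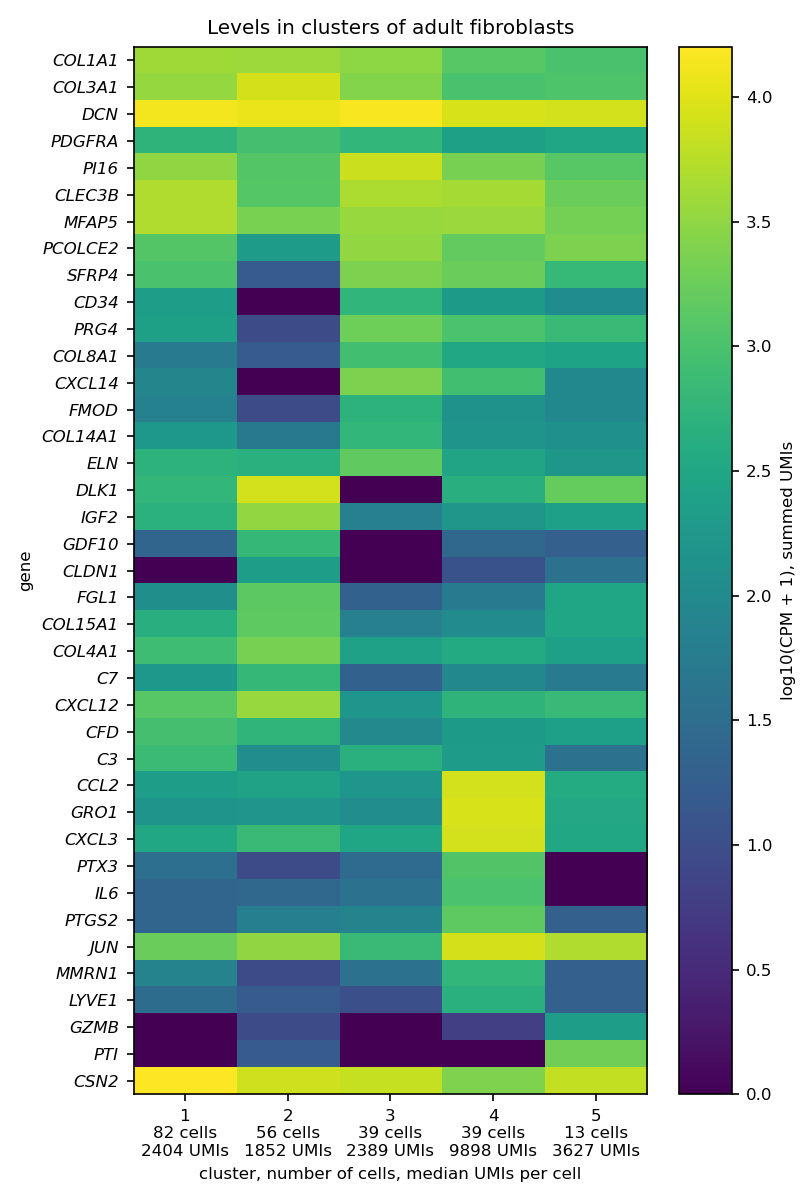
Levels of 39 genes (rows) in 5 clusters of adult fibroblasts (columns, with the number of cells and the median UMIs per cell), coloured by log10(CPM + 1) of summed UMIs. DLK1, IGF2 and GDF10 are bright in cluster 2, PRG4, COL8A1 and CXCL14 in cluster 3, and the inflammatory genes from CCL2 to PTGS2 in cluster 4. PRG4 and, at a lower level, COL8A1 are also seen in cluster 4.

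To compare cells at equal depth, each was thinned to 1000 UMIs, which kept 205 of 229 adult and 11312 of 11820 newborn fibroblasts. PRG4 was then seen in 40 adult cells, or 19.5% (exact binomial interval 14.3 to 25.6%), against 0.433% of newborn fibroblasts. The share in adult T cells, which should lack it, was 0.212%, and their median depth of 2857 UMIs was near the 2744 UMIs of the fibroblasts. Unthinned, PRG4 was seen in 27.9% of adult and 1.33% of newborn fibroblasts. COL8A1 was seen in 31 thinned adult cells, 15.1%, against 0.212% of newborn fibroblasts and 0.141% of adult T cells. Unthinned these shares were 25.8% of adult and 0.609% of newborn fibroblasts. PI16 was seen in 143 adult cells, 69.8%, against 19.6% of newborn fibroblasts and 0.583% of adult T cells (84.7% and 44.8% of adult and newborn fibroblasts unthinned). At equal depth these 3 genes were thus carried by larger shares of adult than of newborn fibroblasts, with the T cell share far below.

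DLK1 was seen in 52 thinned adult cells, 25.4%, against 49.2% of newborn fibroblasts and 0.495% of adult T cells (27.1% and 73.7% of adult and newborn fibroblasts unthinned). Its summed level ran the other way, at 1522 CPM in adult and 969.6 CPM in newborn fibroblasts, so no order between the stages is read from it. In adult fibroblasts its UMIs were packed into fewer cells, with 1424 UMIs in 62 cells and 37 cells with 10 or more.

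At equal depth PRG4 and DLK1 were seen in different adult cells. None of the 40 thinned adult cells with PRG4 had a DLK1 UMI, although 25.4% of all thinned adult fibroblasts did. In newborn fibroblasts 14 of 49 cells with PRG4 had DLK1, also below the 49.2% of all thinned newborn fibroblasts. Nearly every adult cell with PRG4 carried PI16, 39 of 40, and 16 of 40 carried COL8A1. In newborn fibroblasts 10 of 49 cells with PRG4 carried PI16, close to the 19.6% of all newborn fibroblasts, and none carried COL8A1. SFRP4 followed PRG4 in this, since 56 of 60 adult cells with SFRP4 had PI16 and 3 of 60 had DLK1. Among adult cells with DLK1, 23 of 52 had PI16, against 69.8% of all, and 16 of 52 had GDF10, against 10.2% of all. By cluster, PRG4 was seen in 19 of 33 thinned cells of cluster 3, 11 of 39 of cluster 4, 8 of 77 of cluster 1, 2 of 10 of cluster 5 and 0 of 46 of cluster 2. DLK1 was seen in 36 of 46 of cluster 2, 11 of 77 of cluster 1, 3 of 39 of cluster 4, 2 of 10 of cluster 5 and 0 of 33 of cluster 3. For COL8A1 these counts were 18 of 33 in cluster 3, 8 of 39 in cluster 4, 5 of 77 in cluster 1 and 0 in clusters 2 and 5.

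**Figure D3:**
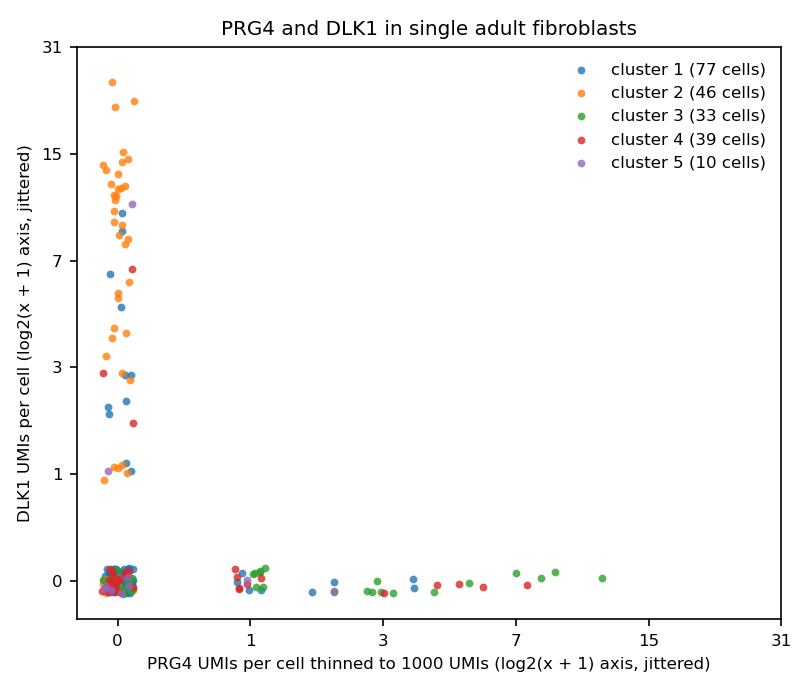
UMIs of PRG4 (horizontal) and DLK1 (vertical) in each of the 205 adult fibroblasts thinned to 1000 UMIs, on log2(x + 1) axes with a small random shift so that points do not hide each other, coloured by cluster. Cells with PRG4 lie along the bottom and cells with DLK1 along the left edge, and no cell has both.

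PDGFRA and AKR1C4 were found in every cluster. PDGFRA was seen in 31 of 77 thinned cells of cluster 1, 22 of 46 of cluster 2, 17 of 33 of cluster 3, 4 of 39 of cluster 4 and 2 of 10 of cluster 5, and AKR1C4 in 7 of 77, 3 of 46, 5 of 33, 5 of 39 and 1 of 10 in the same order. CCL2 was seen in 21 of 39 cells of cluster 4 and in 8 of 77 of cluster 1. The richest 23 cells held 97.8% of the CCL2 UMIs, 81.8% of those of PRG4 and 79.4% of those of DLK1, against 33% for DCN and 34.8% for PDGFRA.

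Between the stages, 208 of 3144 genes (6.62%) that reached 50 CPM and 20 UMIs in either set were 4-fold or more higher in adult fibroblasts and 95 (3.02%) were 4-fold or more lower. The split turned with the scaling, since 108 were higher and 193 lower when the sets were scaled by the median of ratios. It also widened without the deep cluster, to 338 higher and 171 lower. The genes with the 12 largest ratios in each direction kept their direction and remained past 4-fold in all 12 settings tried. They were chosen for their large ratios in these same data, so this outcome was close to fixed and lends them no support. Only the ratio was followed, without the limits of 50 CPM and 20 UMIs. Outside the deep cluster the adult levels of NPPB and ADGRF5 fell below 50 CPM.

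On the adult side the ratios were led by TMEM176A and TMEM176B, a pair of membrane proteins encoded side by side. TMEM176A had 72 UMIs in 50 adult cells and 1 UMI in newborn fibroblasts, a ratio of 4741 with a counting interval of 824 to 189817. TMEM176B had 52 UMIs in adult fibroblasts and 0 in newborn fibroblasts, 1141-fold higher against a floor of 3 UMIs, with a counting interval from 896 upward. Adult epithelial cells had 42 and 32.7 CPM of the pair. AKR1C4, KLK7, COL8A1, NPPB and PRG4, described above, followed, and between them stood TMEM59L with 136 CPM in adult and 1.36 CPM in newborn fibroblasts (99.5-fold, 75 to 133) in 72 cells and at most 1.13 CPM in another adult class. HMCN1 (hemicentin-1, an adhesive matrix protein) had 70.5 CPM in adult and 1.67 CPM in newborn fibroblasts and 109 CPM outside the deep cluster, and JSP and ALDH16A1 (122 and 2.92 CPM) closed the list, although adult endothelial cells had 219 CPM of ALDH16A1. ADGRF5, an adhesion receptor of endothelium, was also among them with 53.4 CPM in adult and 1.09 CPM in newborn fibroblasts, but adult endothelial cells had 321 CPM and the adult fibroblast level outside the deep cluster was 8.96 CPM. For genes of 20 or more adult UMIs whose levels at both stages are given, weighting every cell alike moved these ratios of adult over newborn fibroblasts by more than 1.5 times. Upward they became 183 for TMEM59L, 32978 for TMEM176A, 72.6 for COL8A2, 2509 for COX4I2 and 0.0453 for CRYAB. Downward they became 0.187 for CCL2, 0.0134 for PTX3, 0.30 for IL6, 0.796 for CXCL3 and 0.175 for VEGFA. Likewise they became 0.0469 for TNFAIP6, 0.0428 for ADAMTS4, 0.179 for HSPA1A, 0.0237 for IFI27 and 0.459 for JUN. In the 193 members with few other-lineage UMIs, set against newborn fibroblasts under the same limits, further ratios moved so far, beside that of AKR1C4. They became 66.9 for JSP, 1814 for TMEM176A, 67.1 for COL8A2, 0.188 for CCL2, 0.0384 for MT2A and 0.0275 for ADAMTS4. These shifts can come from either set, and TMEM176A rests on 1 newborn UMI or, without it, on the floor of 3 UMIs.

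On the newborn side stood genes of acute response and interferon. PTX3, a soluble pattern recognition protein, had 469 CPM in adult and 18050.5 CPM in newborn fibroblasts, 38.5-fold (35 to 42.3) higher in newborn, and 23.3 CPM in adult cells outside the deep cluster. That cluster was picked by PTX3 among other genes, so the low level outside it was set by the choice. In thinned cells PTX3 was seen in 8.29% of adult fibroblasts and 83.9% of newborn fibroblasts. IFI6 and IFI27, interferon-induced genes, had 89.8 and 70.5 CPM in adult fibroblasts and 2470.5 and 1905 CPM in newborn fibroblasts. OAS1Y, an antiviral enzyme gene, had 17.1 CPM in adult and 253 CPM in newborn fibroblasts. S100G, a calcium-binding protein, had 4 UMIs and 4.27 CPM in adult fibroblasts, against 69.7 CPM in newborn fibroblasts. CPZ, a carboxypeptidase that binds WNT proteins, had 13.9 CPM in adult and 221 CPM in newborn fibroblasts, LMCD1 had 13.9 CPM in adult and 171 CPM in newborn fibroblasts and PDLIM3, on 3 adult UMIs, 3.21 CPM in adult and 83 CPM in newborn fibroblasts. IGFBP1, POSTN, TNFAIP6 and ADAMTS4, given above, complete the 12.

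**Figure D4:**
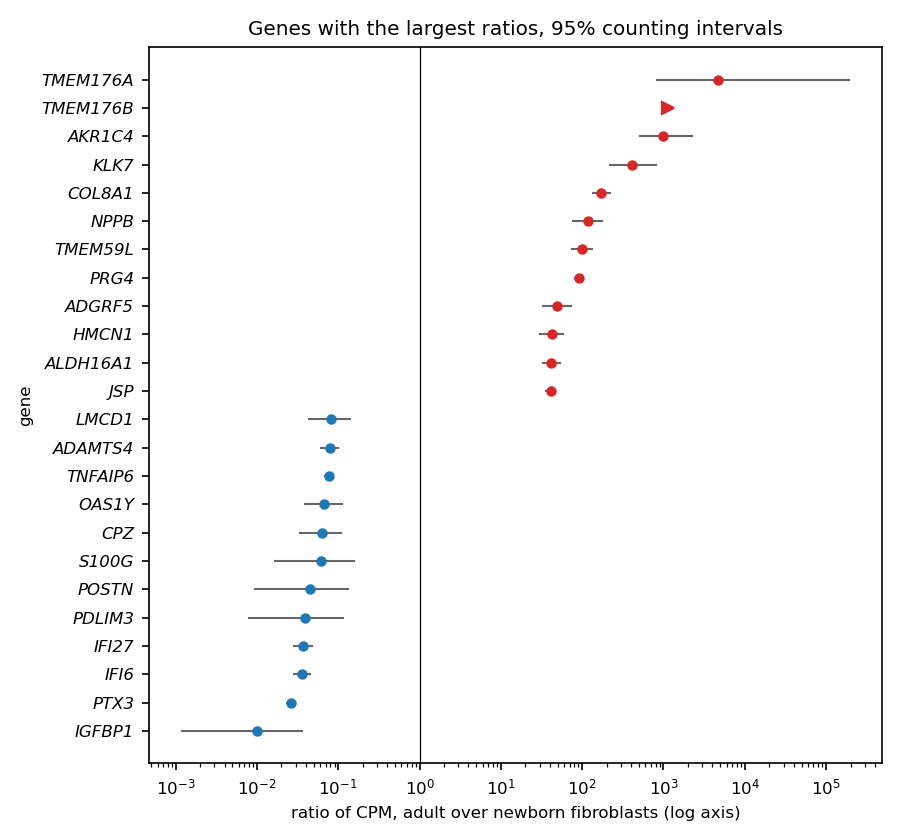
Ratios of CPM in adult over newborn fibroblasts (horizontal, log axis) for the 12 genes with the largest ratio in each direction (rows), with 95% counting intervals as lines. Red marks a higher and blue a lower level in adult fibroblasts, and the arrowhead for TMEM176B marks a lower bound.

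Several response lists were lower in adult fibroblasts. Of 17 interferon response genes, 10 were 2-fold or more lower and 2 higher, with a median log2 ratio of -1.38. CXCL9, 33.1 and 0.162 CPM in adult and newborn fibroblasts, was 1 of those 2, on 31 UMIs in 5 cells. Of 18 heat shock genes, 10 were lower and none higher (-1.17, -1.79 relative to all genes). HSPA1A, an inducible chaperone, had 1355 CPM in adult and 4786 CPM in newborn fibroblasts (826 CPM outside the deep cluster), and CRYAB had 29.9 CPM in adult and 1149 CPM in newborn fibroblasts. Ribosomal protein genes were lower for 24 of 71 and higher for none (median -0.91, -1.53 relative to all genes). They were lower for 52 of 71 without the deep cluster and for 66 of 71 with median scaling. Mitochondrially encoded genes were higher for 11 of 13 (median 1.70, 1.08 above all genes), in the direction of their share of UMIs.

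Immediate early genes, which tissue handling can raise, were 2-fold or more lower in adult fibroblasts for 5 of 24 and higher for 4, and lower for 14 and higher for 3 without the deep cluster (2 higher and 13 lower with median scaling). JUN had 4693 CPM in adult and 6172 CPM in newborn fibroblasts, and 2171 CPM outside that cluster. MT2A, a metallothionein gene that metals and glucocorticoids raise, had 545 CPM in adult and 5163 CPM in newborn fibroblasts, 9.47-fold (8.68 to 10.4) higher in newborn, and 199 CPM outside that cluster. The interferon, heat shock, immediate early and ribosomal lists lay below the median of all genes in every setting tried, as did growth factor ligands, fibrillar collagens and positional transcription factors. Small leucine-rich proteoglycans, basement membrane genes, growth factor receptors, MHC class I and contractile genes lay above it in every setting.

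**Figure D5:**
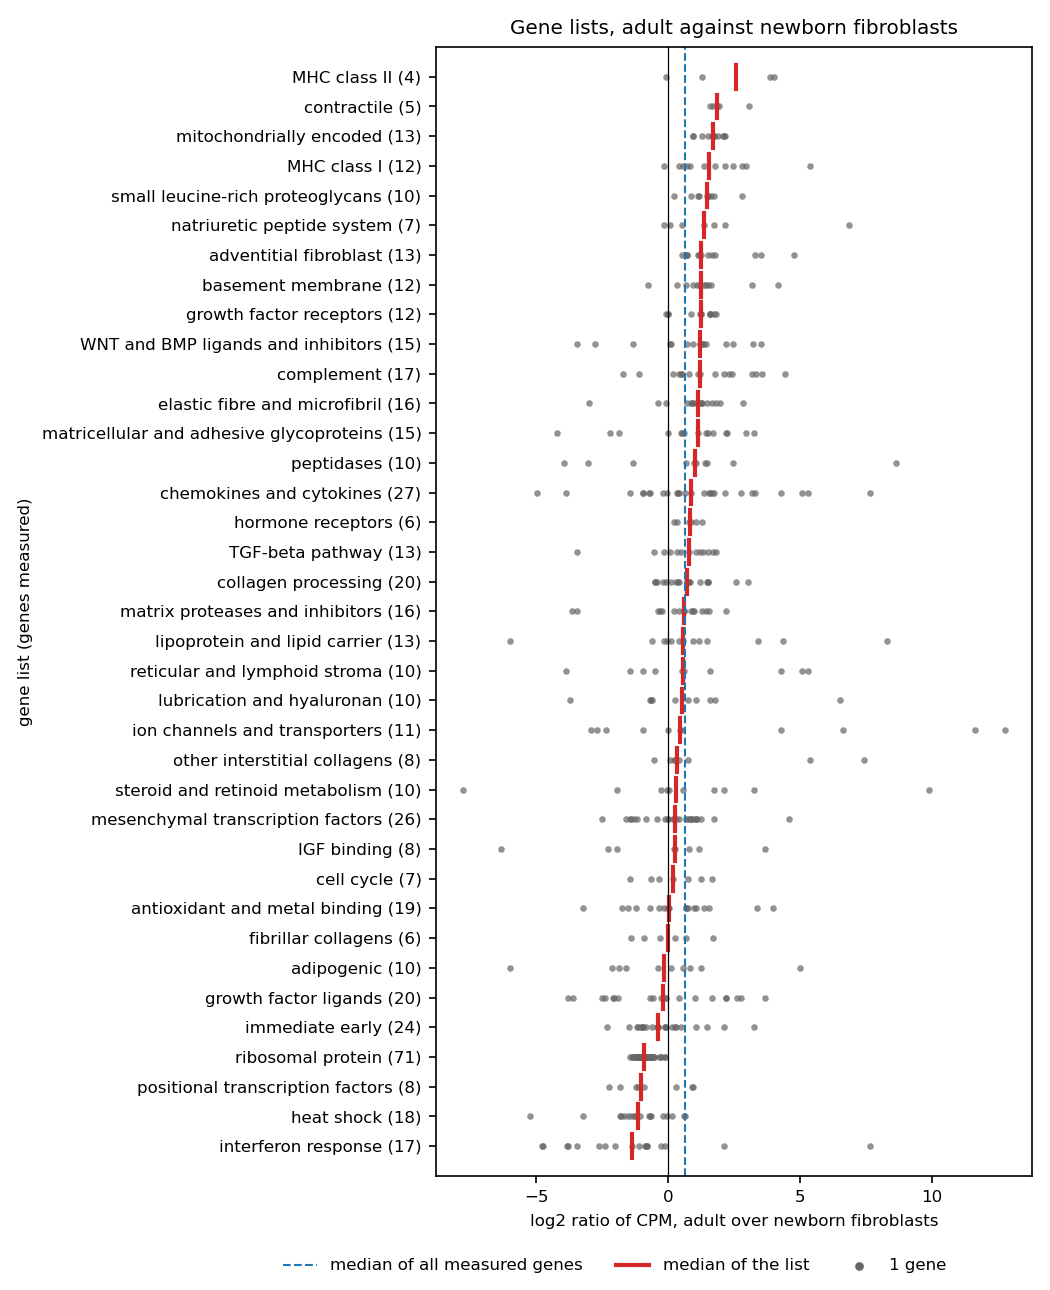
Log2 ratios of CPM in adult over newborn fibroblasts (horizontal) for the measured genes of each list (rows, with the number of genes in brackets). Grey points are genes (a prior of 0.5 UMIs keeps genes at 0 on the axis), red bars are list medians, and the dashed line is the median of all 6023 measured genes at 0.62. Proteoglycan, adventitial, basement membrane and complement medians lie right of the dashed line, and heat shock and interferon medians lie left of 0.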

How the data were processed

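Raw UMI counts per gene and barcode were used as deposited by the authors. The submitters' processing notes name Cell Ranger 3.1.0. The genome build is not given in the sources used here, and no coordinates or sequences are printed. Symbols were taken as the files pair them (19730 of 27270 genes).

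UMIs were summed over cells of a set and given as CPM, with exact Poisson, conditional binomial or Clopper-Pearson intervals. Other adult classes were chosen by markers, and barcodes that met more than 1 of their rules were left out. Doublets were scored with Scrublet in scanpy 1.11.5 and not removed. Its own threshold marked 1.78% of adult and 0.00729% of newborn barcodes, so it did not work in the newborn library, and high scores were the top 11.9% and 11.0% (0.8% per 1000 barcodes). Members were clustered with 1000 variable genes, 15 components, 10 neighbours and resolution 0.5 (seed 1). Ratios and their intervals between the stages were checked on simulated gene sums, drawn as independent Poisson counts. UMIs of some genes here were packed into few cells, a setting that this check did not cover.

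The members, gene lists and markers were chosen with earlier results of these data known. Named genes were the rule and marker genes, the 4 of highest level and up to 2 of largest ratio each way in a list, the 15 widest gaps over other adult classes, and the 12 largest ratios each way between stages at 10% or more of the level of every other adult class. Genes leading clusters, MYOC, and some list members named for their role (such as FGF10, VEGFC or TWIST1) were chosen after their values were seen, and some genes the rule names are not reported here. The design measured list genes by 20 UMIs in the 2 sets together. The added limit of 20 CPM, the cells of low other-lineage levels, equal cell weights, the CSN2 level without 1 cell and the deep cluster left out were also chosen after seeing the data. The limit was added because, at the unequal depths, the prior of 0.5 UMIs alone made genes with almost no adult UMIs appear higher in adult.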

Additional observations from a re-analysis of the deposited data

How the results depend on the processing

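No paired analysis was possible because each stage is 1 library, and the number 1 that both carry was given in accession order. The number of members ranged from 182 to 234. Of the counts, genes 4-fold or more higher in adult fibroblasts (208) became 338 without the deep cluster, 108 under median-of-ratios scaling, 2414 with no limit on low counts and 134 among genes at 50% or more of the highest other adult class. Genes 4-fold or more lower (95) became 171, 193, 251 and 46 in the same order. Genes 4-fold above the highest other adult class (234) became 921 with no limit on low counts and 453 against all other barcodes of the library. Of 521 listed genes, 185 were 2-fold higher and 103 lower (35.5% and 19.8%, against 32.9% and 8.15% over all genes). Median-of-ratios scaling gave 111 and 185 of 521, and no limit on low counts 347 and 140 of 810. Without the deep cluster they were 205 and 155 of 519. In the same order, all genes gave 848 and 1069 of 6023, 9869 and 1057 of 18047, and 2546 and 649 of 6244. Under the design's own limit of 20 UMIs in the 2 sets together the listed genes gave 269 and 140. Thinned to 500 UMIs, COL8A1 was seen in 7.42% and PI16 in 57.2% of adult fibroblasts. By construction, fewer UMIs per cell lower such shares, a common scale factor moves all ratios alike and dropping limits admits more genes. What else entered these shifts was not tested. All 24 genes ranked between the stages and all 15 ranked within the adult library kept their direction and stayed past 4-fold in the 12 settings tried. They were ranked by these same ratios and only the ratio was followed, so this outcome was close to fixed. The adult depth of 935698 UMIs limits genes of a few UMIs, and with 1 library per stage no setting speaks to the spread between animals.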
